A study of Mus musculus with 12 samples.

Results

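The genes of the cytosolic ribosome's proteins were followed over 1 circadian day in the mouse urinary bladder. They were taken by name from the arrays' gene names: Rpl or Rps with digits and at most 1 letter and 1 digit more, together with Rplp0, Rplp1, Rplp2 and Rpsa, and with the Rps6 kinases left out. This gave 80 genes on 134 probes, and 79 of them entered the tests among 18567 names tested in all. Whole bladders came from female C57BL/6 mice, 10 weeks old, first held for 2 weeks with 12 h of light a day and then moved to constant darkness. RNA was hybridised to 12 Agilent 1-colour arrays, with 2 arrays for each circadian time (CT), every 4 h from CT0 to CT20. The first 12 h after CT0 are the subjective day, when mice rest. The time spent in darkness is not given in the labels, nor whether 1 array stands for 1 mouse, so the p-values measure the spread between arrays, which may be technical. All groups were of the same strain and sex, with no mutant or treated group.

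The small and the large ribosomal subunit each join ribosomal RNA with a set of proteins, most of them made from 1 gene each and needed in equal numbers. The mRNAs of these proteins usually begin with a C followed by a run of pyrimidines, the 5′ terminal oligopyrimidine (TOP) tract, through which mTOR signalling and the binding protein LARP1 set how much of the mRNA is translated. In mouse liver, the translation of TOP mRNAs and the making of ribosomes are known to follow the daily cycle of clock and feeding, a level of control that RNA abundance does not show.

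The tract stands at the annotated start of some of these genes and not of others. RefSeq promoter sequences (GRCm38.p6) were found for 60 of the 80 genes. A C at the annotated start followed by at least 4 C or T was present in 13 of these 60 (21.7%), against 3.01% of all 27025 genes of the table. Because 1 base of error in the annotated start removes the match, a looser search counted a run of at least 8 C or T between 10 bases before and 20 bases after the start. It held for 23 of the 60 (38.3%), against 13.01% of all genes. Of the lines below, the first 5 show genes with a tract at the start and the last 2 are genes without it whose values are given below. Each line runs from 10 bases before the annotated start to 20 bases from it, on the gene's strand, and capitals mark the pyrimidine run.
Rps6 (chr4:86857348-86857377, minus strand): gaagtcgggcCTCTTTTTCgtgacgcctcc
Rps10 (chr17:27635225-27635254, minus strand): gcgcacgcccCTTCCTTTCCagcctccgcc
Rpl15 (chr14:18270967-18270996, minus strand): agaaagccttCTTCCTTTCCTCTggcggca
Rps15a (chr7:118116128-118116157, minus strand): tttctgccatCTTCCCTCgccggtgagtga
Rpl28 (chr7:4792955-4792984, plus strand): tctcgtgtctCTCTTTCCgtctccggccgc
Rpl4 (chr9:64173377-64173406, plus strand): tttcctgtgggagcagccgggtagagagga
Rpsa (chr9:120127756-120127785, plus strand): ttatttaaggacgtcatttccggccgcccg

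All 80 genes were well above background on at least 4 arrays, 79 of them on all 12. Values are log2 signals relative to the array's 75th percentile over probes, so that 0 is that percentile. Rpl3l was the exception, well above background on 10 arrays. The single probe of Rps14, a small subunit protein, had an outlier mark on 1 CT0 array, so Rps14 was left out of the main fit. On the other 11 arrays it read 8.65 at CT0, 8.57 and 8.61 at CT4, 8.60 and 8.59 at CT8, 8.55 and 8.50 at CT12, 8.87 and 8.95 at CT16 and 8.81 and 8.74 at CT20. The 4 arrays of CT16 and CT20 were the highest. Fitted over those 11 arrays, the fold was 1.23 with a peak at CT18.7 (adjusted p = 0.265). Its unadjusted p was 0.0294 in the limma 24 h test and 0.0116 in the limma test of the 6 times. The counts of 79 genes below leave Rps14 out.

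The ribosomal protein genes changed little over the day. A 24 h wave was fitted to every name in limma, and the fold below is the peak of that wave over its trough. The median fold of the 79 genes was 1.07, with the quartiles at 1.05 and 1.11, and the median over all names tested was 1.18. None of the 79 passed an adjusted p of 0.05, against 0.619% of all names (115 of 18567). At an unadjusted p under 0.05 the count was 3 of 79, namely Rpl4, Rpl28 and Rpsa, where 15.6% of all names fell under that value. In the test that asks whether the 6 times differ at all, 0 of 79 passed in limma, with 7 (8.86%) at an unadjusted p under 0.05. Of all names, 0.0754% passed that test and 19.1% had an unadjusted p under 0.05. The same arrays showed waves elsewhere: 13 of 15 core clock genes passed, among them Dbp, a clock output activator, at 18.2-fold and the repressor gene Nr1d1 at 11.6-fold.

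The arrays put an upper limit on most of the waves in the main fit, which has no term for slide. The arrays lay on 3 slides that each held whole times, so slide and time cannot be fully told apart. With slide as a block, which leaves differences within slides, the median fold was 1.12 and some fitted folds lay above the bounds of the main fit. The fitted fold was under 1.1 for 57 of the 79 genes (72.2%), against 23.6% of all names. The upper end of the 95% interval of the fold lay under 1.2 for 36 genes (45.6%) and under 1.5 for 76 genes (96.2%), against 5.78% and 51.0% of all names. Bright probes vary less on arrays, and the 195 other names whose level lay within the middle 50% of the ribosomal protein genes' levels had a median fold of 1.12. Of the 195, 40% had a fold under 1.1, and the upper bound lay under 1.2 for 11.3% and under 1.5 for 82.1%. In the limma 24 h test 21 of the 195 (10.8%) had an unadjusted p under 0.05. In the limma test of the 6 times 17 (8.72%) did, near the 8.86% of the ribosomal protein genes. By adjusted p, 0 of the 195 passed either test. They were chosen by name, by level and by lying well above background on all 12 arrays. They therefore include Rpl34, a ribosomal protein gene listed under a clone name, and other TOP mRNA genes such as Eef1a1, Eef1b2 and Pabpc1. Names that the files describe as like a ribosomal protein were not taken out. The SD over the 12 arrays had a median of 0.083 (log2) for the ribosomal protein genes, 0.116 for these 195 names and 0.194 for all names. Between the 2 arrays of 1 time, the pooled SD had a median of 0.064 for the ribosomal protein genes and 0.087 for the names as bright. Whole-bladder RNA cannot tell a change in the RNA of each cell from a change in the number of cells.

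**Figure D1:**
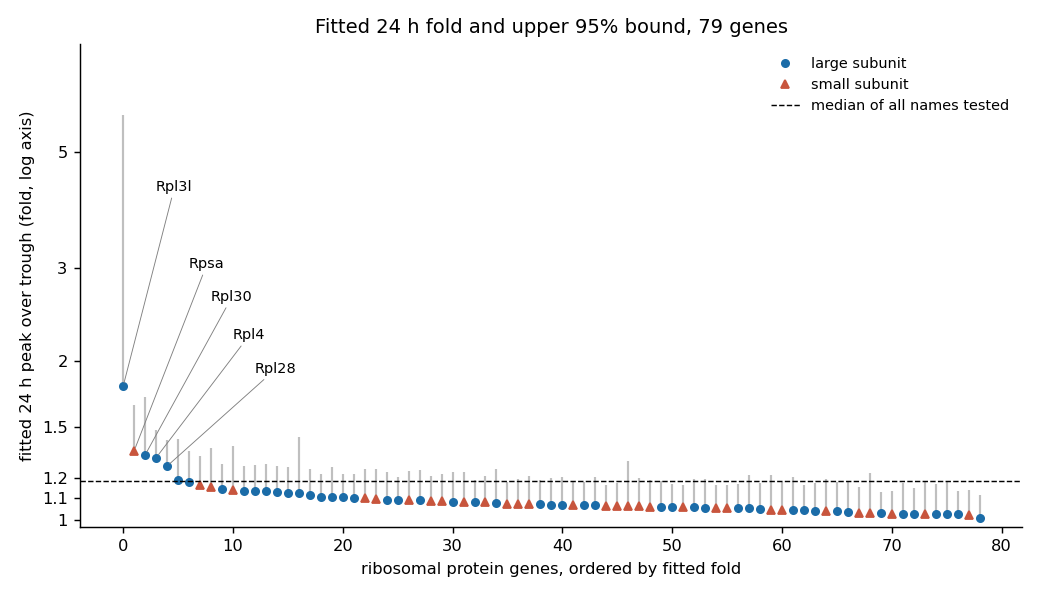
Fitted 24 h peak over trough (fold, log axis) of each of the 79 genes, in order of size, with grey lines up to the upper end of the 95% interval and a dashed line at the median of all names tested, 1.18. The 5 named genes stand highest, and the other 74 have a fold under 1.2.

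The smallest fitted waves were those of Rpl24, Rps3a, Rpl7, Rpl31 and Rpl35a, 4 large subunit proteins and 1 small (Rps3a). Rpl24 read 4.62 and 4.59 at CT0, 4.66 and 4.62 at CT4, 4.69 and 4.65 at CT8, 4.56 and 4.62 at CT12, 4.59 and 4.70 at CT16 and 4.66 and 4.70 at CT20. No time stood apart from all others. The fitted fold was 1.01, with an upper bound of 1.11. The folds of Rps3a, Rpl7, Rpl31 and Rpl35a were 1.02, 1.02, 1.02 and 1.03, with upper bounds of 1.14, 1.14, 1.18 and 1.17. With slide as a block, Rps3a had a fold of 1.18 and Rpl7 of 1.15, above these bounds.

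Rps6 is the small subunit protein that S6 kinases phosphorylate downstream of mTOR. Its probe (chromosome 4, 86259708 to 86259899, mm7) read 6.45 and 6.41 at CT0, 6.45 and 6.31 at CT4, 6.61 and 6.42 at CT8, 6.31 and 6.32 at CT12, 6.49 and 6.51 at CT16 and 6.45 and 6.51 at CT20. A CT8 array was the highest, and both CT12 arrays were among the 3 lowest. Rps6 had a fitted fold of 1.04, with an upper bound of 1.19 (adjusted p = 0.912).

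Rpl5 and Rpl11 join 5S ribosomal RNA in the large subunit, and outside the ribosome they bind the p53 regulator Mdm2. Rpl5 (chromosome 5, 107081179 to 107082086, mm7) read 8.08 and 8.00 at CT0, 8.12 and 8.09 at CT4, 8.25 and 8.03 at CT8, 8.03 and 8.04 at CT12, 8.21 and 8.25 at CT16 and 8.24 and 8.21 at CT20. Rpl11 (chromosome 4, 135428407 to 135428729, mm7) read 8.13 and 8.20, 8.19 and 8.13, 8.13 and 8.12, 8.11 and 8.16, 8.23 and 8.33, and 8.30 and 8.20 in the same order of times. The 4 arrays of CT16 and CT20 were among the 5 highest in both genes. Their fitted folds were 1.09 for Rpl5 and 1.11 for Rpl11, with upper bounds of 1.24 and 1.22, and neither passed (adjusted p = 0.673 and 0.443).

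The stalk proteins Rplp0, Rplp1 and Rplp2 form the arm of the large subunit that recruits elongation factors. Rplp1 read between 8.45, on a CT8 array, and 8.68, on a CT20 array, and Rplp2 between 8.36, on a CT8 array, and 8.56, on a CT16 array. Their fitted folds were 1.07 and 1.08. The probe named Rplp0 had a fold of 1.04, but the files place it on chromosome 8 and RefSeq places the gene on chromosome 5. A probe with the gene's accession under its older name Arbp read between 8.58 and 8.74 and had a fold of 1.06. Rps27a, made as a fusion with ubiquitin, had a fold of 1.08. None of these passed the test.

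Rpl4, a large subunit protein that lines the tunnel through which the new chain leaves, had the lowest adjusted p of the family. Its probe (chromosome 9, 64203185 to 64203244, mm7) read 4.54 and 4.36 at CT0, 4.21 and 4.17 at CT4, 4.16 and 4.23 at CT8, 4.35 and 4.30 at CT12, 4.56 and 4.64 at CT16 and 4.45 and 4.47 at CT20. The 4 arrays of CT4 and CT8 were the lowest and both CT16 arrays the highest, with no overlap between these times. The fitted fold was 1.31 (1.24 to 1.39 at 1 SE on either side), with a peak at CT18.3 and an adjusted p of 0.0989. With quantile normalisation the fold was 1.25 (adjusted p = 0.154), and with slide as a block 1.38 (adjusted p = 0.376).

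Rpl28, of the large subunit, had its tract printed above. It read 7.46 and 7.53 at CT0, 7.22 and 7.29 at CT4, 7.27 and 7.34 at CT8, 7.25 and 7.30 at CT12, 7.46 and 7.60 at CT16 and 7.54 and 7.59 at CT20 (chromosome 7, 4367685 to 4367744, mm7). All 6 arrays from CT16 through CT0 lay above all 6 from CT4 to CT12. The fold was 1.26 (1.2 to 1.33) with a peak at CT19.7 (adjusted p = 0.119). With quantile normalisation the fold was 1.18 (adjusted p = 0.225), and with slide as a block 1.26 (adjusted p = 0.506).

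Rpsa, a small subunit protein also known as the laminin receptor, had the largest fold outside Rpl3l. It read 5.19 and 4.96 at CT0, 4.79 and 4.48 at CT4, 4.83 and 4.75 at CT8, 5.11 and 4.99 at CT12, 5.24 and 5.03 at CT16 and 5.17 and 4.91 at CT20 (chromosome 9, 119824366 to 119824425, mm7). The 4 arrays of CT4 and CT8 were the lowest. The fold was 1.35 (1.23 to 1.48) with a peak at CT17.4 (adjusted p = 0.244). A second Rpsa probe, on the same chromosome, had a fold of 1.16 and a peak at CT19.2 (adjusted p = 0.454).

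Rpl30, a large subunit protein, had its peak in another part of the day. It read 6.49 and 6.76 at CT0, 6.75 and 6.71 at CT4, 5.99 and 6.20 at CT8, 6.36 and 6.48 at CT12, 6.12 and 6.45 at CT16 and 6.56 and 6.37 at CT20 (chromosome 15, 34549505 to 34549564, mm7). Both CT4 arrays lay above all arrays of CT8 to CT20. The fold was 1.33 (1.18 to 1.49) with a peak at CT0.40 (adjusted p = 0.396). CT0 and CT4 shared 1 of the 3 slides and CT8 and CT12 another. With slide as a block, which leaves differences within slides, the peak moved to CT17.3 at 1.2-fold.

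**Figure D2:**
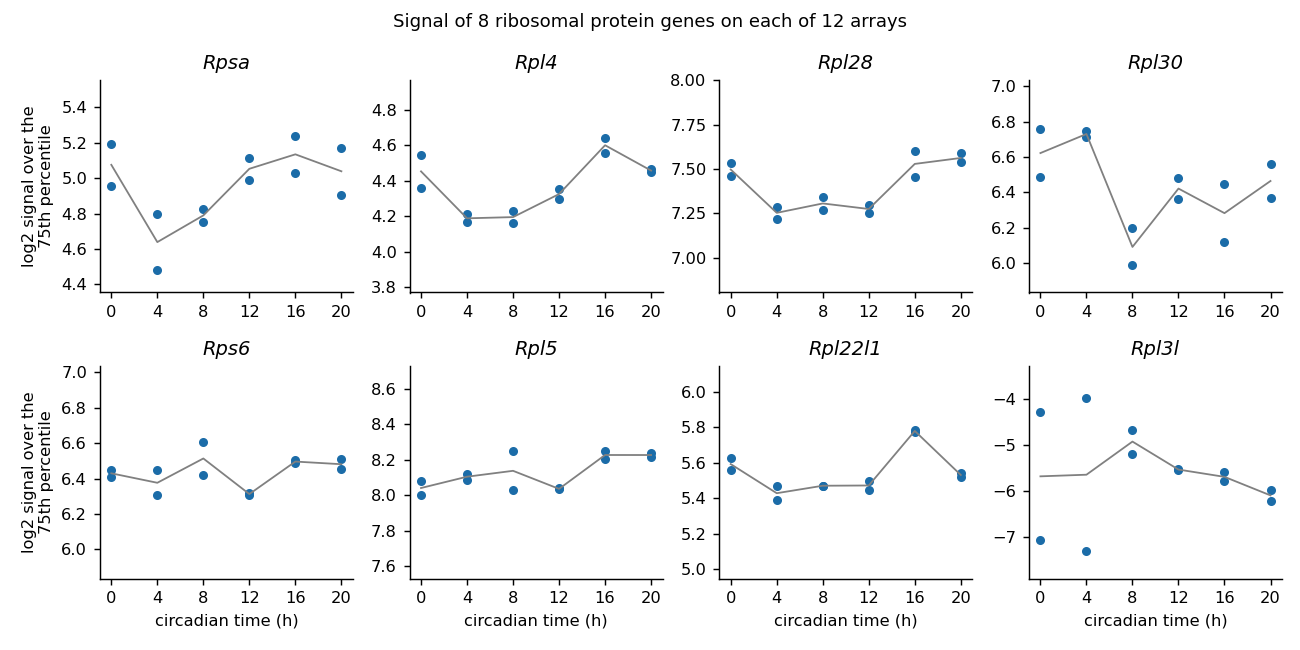
Log2 signal over the array's 75th percentile (vertical axis) against circadian time in hours for 8 genes, with 1 point per array and a line through the 2-array means. Every panel spans the same height except Rpl3l, whose axis is longer, and Rps6 and Rpl5 stay flatter than Rpsa, Rpl4, Rpl28 and Rpl30.

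Besides Rps14, which was fitted apart, the other genes with an unadjusted p under 0.05 in the test of the 6 times were Rpl22l1, Rps15a, Rps26 and Rpl29. Rpl22l1, a paralog of the large subunit protein Rpl22, read 5.77 and 5.79 at CT16, above the other 10 arrays, which lay between 5.39 and 5.62. Its highest time stood 1.28-fold over its lowest (adjusted p = 0.181). Rps15a, of the small subunit, read 7.08 and 7.19 at CT16 and between 6.80 and 6.97 on the other arrays. Its highest time stood 1.24-fold over its lowest (adjusted p = 0.219). Rps26, a small subunit protein near the mRNA exit, was highest by its mean at CT8, with 5.88 and 5.70, and lowest at CT16, with 5.44 and 5.40. The difference was 1.29-fold (adjusted p = 0.223), and CT20, with 5.74 and 5.77, lay near CT8. Rpl29, of the large subunit, had its highest pair, 5.08 and 5.07, at CT20 (adjusted p = 0.233).

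Paralogs named after a family member were compared with their partners by their folds, since levels of different probes cannot be set against each other. Rpl22l1 had a fitted fold of 1.18 and Rpl22 of 1.05. Rps27l had a fold of 1.04 with a peak at CT3.1, and Rps27 had a fold of 1.09 with a peak at CT18.4. Their unadjusted p in the limma 24 h test was 0.771 and 0.284, and with slide as a block the peaks lay at CT4.4 and CT12.3. Rpl7l1, which is known from ribosome assembly, had a fold of 1.19 and Rpl7 of 1.02. None of these 6 genes passed, and the differences between the folds or the peaks of partners were not tested. Through RefSeq accessions, 2 more paralogs were found under other names in the files: Rps4l had a fold of 1.16 and Rpl39l, well above background on 11 arrays, of 1.97 with an upper bound of 4.47 (adjusted p = 0.631 and 0.543).

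Rpl3l, the paralog of Rpl3 made in striated muscle, had the largest fitted fold, 1.79, and the widest error, 1.05 to 3.07 at 1 SE on either side (adjusted p = 0.781). The fold ran from 1.19 in the authors' deposited table to 2.69 without CT4 replicate 2, and with normexp, the deposited table or slide as a block another gene (Rpsa or Rpl30) had the largest fold. Its probe (chromosome 17, 22917799 to 22918067, mm7) read -4.30 and -7.07 at CT0, -3.99 and -7.30 at CT4, -5.19 and -4.67 at CT8, -5.54 and -5.53 at CT12, -5.60 and -5.79 at CT16 and -5.97 and -6.22 at CT20. The 2 arrays of CT0, and those of CT4, lay at opposite ends of its range, and on the lower array of each it was not well above background. Across 22 of 24 striated muscle genes measured, the mean level was -0.44, -0.37 and -0.59 on the 3 arrays where Rpl3l was highest, CT0 replicate 1, CT4 replicate 1 and CT8 replicate 2, and between -2.03 and -1.23 on the other 9. The part of these genes in the Rpl3l values was not tested. Rpl3 itself lay between 6.99 and 7.24 on all arrays, with a fold of 1.07.

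**Figure D3:**
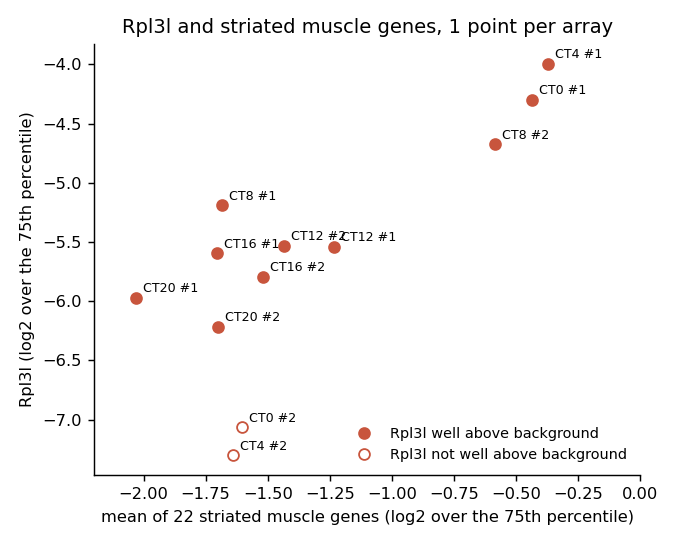
Rpl3l signal (vertical axis) against the mean of 22 striated muscle genes (horizontal axis), both as log2 over the array's 75th percentile, with 1 point per array labelled by time and replicate number. The 3 arrays with the highest Rpl3l signal have the 3 highest muscle means, and the open points are the 2 arrays where Rpl3l was not well above background.

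Apart from single genes, the family moved together by a small amount. Each gene's 12 values were centred on their mean, and the median over the 79 genes was -0.002 at CT0, -0.025 at CT4, 0.007 at CT8, -0.074 at CT12, 0.055 at CT16 and 0.056 at CT20 (log2). CT12 was the lowest time for 46 genes, and CT16 or CT20 the highest for 65. Such counts were taken for the ribosomal protein genes only. Small and large subunit genes followed the same course, at -0.077 and -0.074 at CT12 and 0.053 and 0.057 at CT16. The fitted peak lay between CT16 and CT24 for 67 of 79 genes (84.8%), against 39.9% of all names and 69.7% of the 195 names as bright. The 195 names, which include Rpl34, had medians of -0.077 at CT12 and 0.079 at CT16. At both times they lay near the ribosomal protein genes. These were their lowest and highest times, 1.11-fold apart, against a span of 1.09-fold for the ribosomal protein genes. The 13 urothelium genes measured also had their lowest mean at CT12 (-0.264, from -0.414 and -0.113 on the 2 arrays) and their highest at CT20 (0.219). Mitochondrial ribosomal protein genes and translation factors were also lowest at CT12 (-0.082 and -0.066), and highest at CT16 (0.043 and 0.020). Other TOP mRNA genes were lowest at CT4 (-0.041) and smooth muscle genes at CT8 (-0.098). The part of urothelial cells in the family's course was not tested.

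The order of the times in this small common course depended on how the arrays were scaled. Under quantile normalisation the medians of the 79 genes lay between -0.022, at CT12, and 0.018, at CT20. Under cyclic loess CT16 became the lowest time, at -0.038, and CT4 the highest, at 0.038. From CT12 to CT16, a step between slides, 74 of the 79 genes (93.7%) were higher at CT16 with the 75th percentile. Of the 195 names as bright 86.2% were, and of all names 54.0%. With quantile normalisation it was 48 genes (60.8%, against 56.4% and 52.2%), and with cyclic loess 17 (21.5%, against 43.1% and 48.5%). No direction of the family as a whole is therefore given. In the 6 sets of values compared (these 3, median scaling, normexp background correction and the authors' deposited table), the median course spanned at most 1.16-fold between its highest and lowest time, with median scaling. Median scaling moved the median of all names by up to 0.101 (log2) on 1 array.

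**Figure D4:**
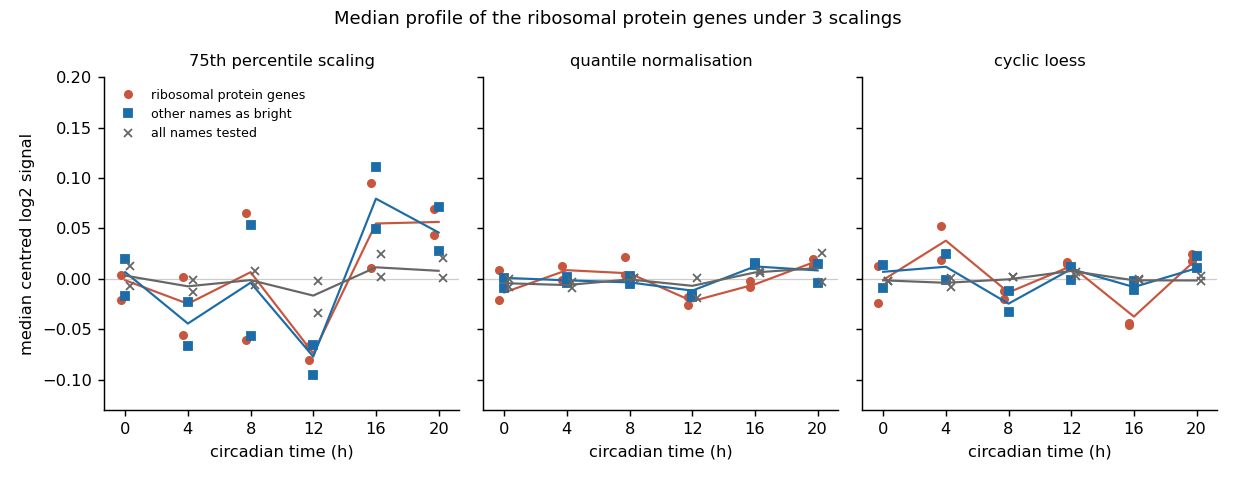
Median centred log2 signal (vertical axis) against circadian time in hours under 3 scalings, for the 79 ribosomal protein genes, the 195 other names as bright and all names tested; points are arrays and lines join the time means. The fall at CT12 and the higher values at CT16 of the left panel shrink in the middle panel, and CT16 lies lowest for the ribosomal protein genes in the right panel.

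None of the 6 steps between successive times, each as the later minus the earlier time with CT0 after CT20, gave a ribosomal protein gene past an adjusted p of 0.05 in limma. Over all names, 0.00539% (1 name) passed at CT4 minus CT0 and likewise at CT20 minus CT16, and 0% at the other 4 steps. At an unadjusted p under 0.05 the ribosomal protein genes numbered 6 at CT4 minus CT0 (9.17% of all names), 2 at CT8 minus CT4 (6.57%), 3 at CT12 minus CT8 (13%), 12 at CT16 minus CT12 (18.7%), 4 at CT20 minus CT16 (14.2%) and 2 at CT0 minus CT20 (9.82%).

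Of the 80 genes, 40 had further probes. Across 50 other probes of 39 genes, the median fold was 1.11 and none passed when every probe was tested on its own, with 4 at an unadjusted p under 0.05. In that fit 16.5% of all 27710 probes had such a p, and 235 passed. These 4 were 1 probe of Rpl23, 1 of Rpl7a and both further probes of Rps21. The 3 Rps21 probes gave folds of 1.1, 1.24 and 1.38, with the brightest probe the flattest. The Rpl7a probes gave 1.03, 1.07 and 1.22. The 20 further probes with a level under 3 had a median fold of 1.15 and the 30 others of 1.09. The probes with the lowest levels among the 79 genes, after Rpl3l, were those of Rpl21 (0.52), Rpl7l1 (1.32), Rpl31 (1.78) and Rpl14 (2.10), and those with the highest were Rps18 (8.98), Rps23 (8.64), Rpl7a (8.54), Rplp1 (8.54) and Rpl37a (8.53). These levels depend on each probe as well as on its RNA and do not rank the genes. Folds of the 5 highest lay between 1.03 and 1.07, and those of Rpl21, Rpl7l1, Rpl31 and Rpl14 between 1.02 and 1.19.

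Some ribosomal protein genes lay outside the name rule, besides the paralogs Rps4l and Rpl39l above. Fau, which encodes Rps30 fused to a ubiquitin-like protein, had a fold of 1.06. Rpl34, listed in the files under a clone name, had a fold of 1.04 and Rpl36al of 1.08. Among 16606 other names well above background on all arrays, Fau had the course most like the family's median, with a Pearson r of 0.974 over the 12 arrays. Next came LOC672341 (0.941) and TC1534798 (0.933), both described in the files as like Rpl21, then ENSMUST00000079794 (0.931), which the files do not describe, and Ndufa3 (0.927), a subunit of respiratory complex I. These values share scaling and arrays and are a description. Within the family, r of a gene with the median of the others had a median of 0.735, and it was over 0.5 for 68 of 79 genes. It was below 0 for 3, namely Rpl21 itself (-0.304), Rpl30 (-0.154) and Rpl3l (-0.0907).

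Genes that act on ribosomes showed no called wave either. Of 165 companion genes in 6 lists, 0 passed in limma and 12 (7.27%) had an unadjusted p under 0.05, against 15.6% of all names, with a median fold of 1.1. Other TOP mRNA genes, such as elongation factor genes, had a median fold of 1.08, and 0 of 16 had an unadjusted p under 0.05. Mitochondrial ribosomal protein genes, which serve the separate ribosome of mitochondria, had a median fold of 1.07, with 4 of 73 under that value. RNA polymerase I transcription genes had 1.09 (0 of 10) and initiation and elongation factors 1.13 (1 of 17).

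Among the genes of mTOR and TOP control, 5 of 26 had an unadjusted p under 0.05 and the median fold was 1.11. Larp1, which holds TOP mRNAs, had a fold of 1.11 and Frap1, the mTOR kinase gene under its older name, of 1.11. Eif4ebp2, a translation repressor that mTOR inactivates, read 3.06 and 3.19 at CT0, 3.27 and 3.46 at CT4, 3.19 and 3.23 at CT8, 2.64 and 2.90 at CT12, 2.87 and 2.90 at CT16 and 2.81 and 3.15 at CT20. The 6 arrays of CT0 to CT8 lay above those of CT12 and CT16, and 1 CT20 array lay among them. The fitted fold was 1.44 with a peak at CT3.5 (adjusted p = 0.137). Ddit4l, an inhibitor of mTOR signalling, had 1.76-fold with a peak at CT3.3 (adjusted p = 0.190). The other 3 were the kinase genes Rps6ka1 (1.36-fold, CT3.8) and Mknk1 (1.23-fold, CT14.2) and the sestrin gene Sesn3 (1.36-fold, CT22.1).

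Ribosome biogenesis genes had a median fold of 1.14, and 2 of 23 had an unadjusted p under 0.05. Nolc1, a nucleolar phosphoprotein, read 0.71 and 1.32 at CT0, 1.14 and 1.15 at CT4, 1.37 and 0.86 at CT8, 0.49 and 0.63 at CT12, 0.59 and 0.58 at CT16 and 0.42 and 0.57 at CT20. All 6 arrays of CT0 to CT8 lay above the 6 of CT12 to CT20. The fold was 1.67 with a peak at CT4.5 (adjusted p = 0.136). Utp14a, of the small subunit processome, had 1.58-fold with a peak at CT4.3 (adjusted p = 0.159). Neither passed.

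A DNA motif of the clock was looked for near the starts of these genes, as a description of the letters there. CACGTG, the E-box bound by CLOCK and BMAL1, reads the same on both strands. It was found from 250 bases before to 50 bases after the start in 5 of the 60 matched genes (8.33%), against 8.09% of all genes. These were Rpl13a, Rpl14, Rpl19, Rpl23 and Rps19, with fitted folds of 1.15, 1.13, 1.04, 1.07 and 1.04. The D-box sequence TTATGTAA, searched on both strands, was in 0 of 60 and in 1.11% of all genes. The 2 strings do not overlap each other. The 13 genes with a pyrimidine run at the start had a median fold of 1.08 and the 47 without one of 1.06.

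The share of spots well above background was 64.2% to 70.2%, the 75th percentile lay between 844 and 984 intensity units, and no spot was saturated. The CT0 array with the mark on Rps14 had 228 outlier spots, against 55 to 83 on the other 11. Defining genes of the tissue were present, with 13 of 14 urothelium genes and 12 of 12 smooth muscle genes measured. Over the 12 arrays the mean centred level (log2) ranged from -1.97 to 2.69 for 15 hepatocyte genes, from -1.9 to 1.15 for 13 adipocyte genes and from -0.7 to 0.96 for the striated muscle genes. The part of such RNA in the values of the ribosomal protein genes other than Rpl3l was not tested either. The number of arrays limits the precision.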

How the data were processed

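The deposited scanner files hold the processed spot intensity that Agilent Feature Extraction 10.5.1.1 gave, not normalised between arrays, and other yes-or-no marks per spot (per the file headers). A deposited table of log2 values by the authors, for which the submitters' processing notes name R 2.8.1 and whose normalisation is not given in the sources used here, served as an alternative only. Probe positions are those of the files (mm7), with no annotation of that build used here to place them in exons or UTRs.

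Log2 signals were averaged per probe after outlier spots were dropped, and each array's 75th percentile was subtracted. Probes lacking a value on any array (271 of 41174) were not used. Each name kept its brightest probe, if well above background on at least 4 arrays. limma 3.58.1 (R 4.3.3) fitted cosine and sine terms of 24 h (9 residual degrees of freedom) and a 1-way model of the 6 times (6 residual degrees of freedom), with moderated F-tests for both and moderated tests for the 6 steps. Benjamini-Hochberg adjustment ran over all 18567 names, with a threshold of 0.05. Upper bounds are the upper end of the two-sided 95% interval of the amplitude by the delta method. The fits were tested on simulated data without slide effects, with waves larger than that fitted to any member but Rpl3l. That test does not bear on the upper bounds of smaller waves.

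The members and lists were chosen with earlier results of these data known. The rule for named genes took members past a threshold, the 5 largest and 5 smallest amplitudes, the 5 highest and 5 lowest levels, the paralogs with their partners, Rplp0, Rplp1, Rplp2, Rpsa, Rps6, Rpl5, Rpl11 and Rps27a, companion genes past the threshold, and the 5 other names most like the members' median course. Other genes were named after their values were seen. Marker lists of hepatocytes, red blood cells, leukocytes, adipocytes and germ cells were measured on 15 of 17, 4 of 9, 18 of 23, 13 of 14 and 5 of 11 genes, with 0 past the threshold in each; 1 of the 22 striated muscle genes passed. Paralogs not given here were not analysed here. One further ribosomal protein gene is not reported here.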

Additional observations from a re-analysis of the deposited data

How the results depend on the processing

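No ribosomal protein gene passed the threshold in the 24 h test, the test of the 6 times or any of the 6 steps, and no companion gene in the 24 h test, under any of 17 other settings or in the 12 fits that left out 1 array, in limma. Of the 17, 15 were planned, and 2 were chosen after seeing the data (probes missing on 1 array kept, and every probe on its own). Over the 17 the count of genes at an unadjusted 24 h p under 0.05 lay between 2 and 13, where 9.55% to 18.7% of all names had such a p. When 1 array was left out the count lay between 2 and 5, where 12.04% to 16.6% of all names had such a p. The 13 came without the variance prior and are 16.5% of the genes, against 15.7% of all names. The lowest adjusted p of a gene was 0.0583, for Rpl4 with an intensity trend in the prior, and 0.0768 when 1 array was left out. The highest for Rpl4 was 0.376, with slide as a block. The median fold lay between 1.05 and 1.12 over the settings. With slide as a fixed block, Rpsa reached 1.75-fold (adjusted p = 0.322) and Rps26 1.62-fold (adjusted p = 0.272), and 7 of all names passed. Slide as a random block gave no separate value for the test of the 6 times and the steps, since slides hold whole times. Replicate number as a block left 0 ribosomal protein genes past the threshold and 94 of all names, against 115 without it. With that block the adjusted p of Rpsa was 0.142 in the limma 24 h test and 0.130 in the limma test of the 6 times. Same-numbered arrays deviated together in 10 of 15 pairs of times at r over 0.1, with a range of -0.198 to 0.438. Whether same-numbered arrays share an origin is not given in the labels, and the main fit has no term for the number. Leaving out 1 array moved the number of all names past the 24 h threshold to between 39 and 102. With 2 arrays a time, a wave smaller than a gene's upper bound is not shown to be absent. The upper bounds are those of the fit without slide, and some folds lay above them with slide as a block.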
